A study of Schizosaccharomyces pombe with 4 samples.

Results

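The genes described here encode the nuclear pore and the factors that carry proteins and RNA through it, in the fission yeast Schizosaccharomyces pombe. They are the array genes whose deposited description holds one of the terms nucleoporin, nuclear pore, importin, karyopherin, exportin, nuclear export, mRNA export or nuclear transport factor, and 36 of the 4997 array genes do. By those words 21 are pore genes, 12 are transport receptors and carriers, and 3 act in the export of mRNA or other cargo. The 36 array genes lie at 35 loci, because the 2 features described as nuclear transport factor overlap. The deposited descriptions give no gene symbol to any of them, and several share 1 wording (7 are described only as putative nucleoporin), so each is identified by its description, its chromosome and its deposited start and end. No genome build is named for those coordinates in the sources used here.

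Messenger RNA levels were compared between a wild-type strain (FY12806) and a strain deleted for red2 (SP744), with 2 arrays for each. Both strains grew logarithmically in 1 rich medium supplemented with glucose and adenine. Cy3 was the label of the total RNA, and each RNA was hybridised to a 1-colour oligonucleotide array. The labels give no other allele and do not say whether a strain was cultured separately for each array. The p-values therefore measure the variation between arrays alone, possibly technical. In bulk RNA a change per cell and a change in the mix of cells cannot be told apart.

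The nuclear pore complex is a channel through the nuclear envelope built from many copies of proteins called nucleoporins. Some form its scaffold, and others carry phenylalanine-glycine repeats that line the channel and bind the carriers. Importins and exportins, together called karyopherins, carry cargo in or out under the control of the small GTPase Ran, and nuclear transport factor 2 returns Ran to the nucleus. Bulk mRNA leaves through a separate receptor that is not a karyopherin.

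Values are log2 of the deposited intensities, averaged over the 2 blocks of values that each gene has on an array. The median deposited intensity ran from 21231.7 to 22158.1 over the 4 arrays, and the correlation across genes was 0.997 between the wild-type arrays, 0.996 between the deletion arrays and 0.934 to 0.945 between groups. The level of red2 itself is not given, since the tables used here do not attach that name to any array gene. Of all array genes, 1 stood above 11 on both wild-type arrays and below 9 on both deletion arrays, namely a hypothetical protein rich in serine and proline that is none of the genes described here. The title and strain of deletion replicate 2 name red2, while its description names red3. Without that array the median log2 fold change of the 36 genes was 0.21, against 0.16 with it. The median of all array genes without it is not given here. The names of the arrays carry a code number that is the same within a strain and differs between the strains. Its meaning is not given, and whatever it marks cannot be told apart from genotype.

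In the deletion strain, 18 of the 36 genes were higher, 2 were lower and 16 missed the threshold (limma, two-sided, adjusted p under 0.05 over all array genes). Over all 4997 array genes, 34.0% were higher and 29.8% were lower by the same rule, and 63.8% passed in either direction, where 20 of the 36 did. The changes were modest: the largest increase was 1.70-fold and the largest decrease 1.61-fold, and 0 of the 36 were at least 2-fold apart, against 5.26% of all array genes. The median log2 fold change was 0.16 for the 36 genes and 0.012 for all array genes. Both deletion arrays lay above both wild-type arrays for 27 of the 36 genes, where 43.4% of all array genes did so, and below them for 5, where 41.2% of all array genes did. The log2 fold change had the same sign in the 2 blocks for 33 of the 36 genes and for all 20 genes that passed the test. The test used the mean of these same blocks, so the agreement among genes that passed is not separate evidence. The share of all array genes with the same sign in both blocks is not given here.

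**Figure D1:**
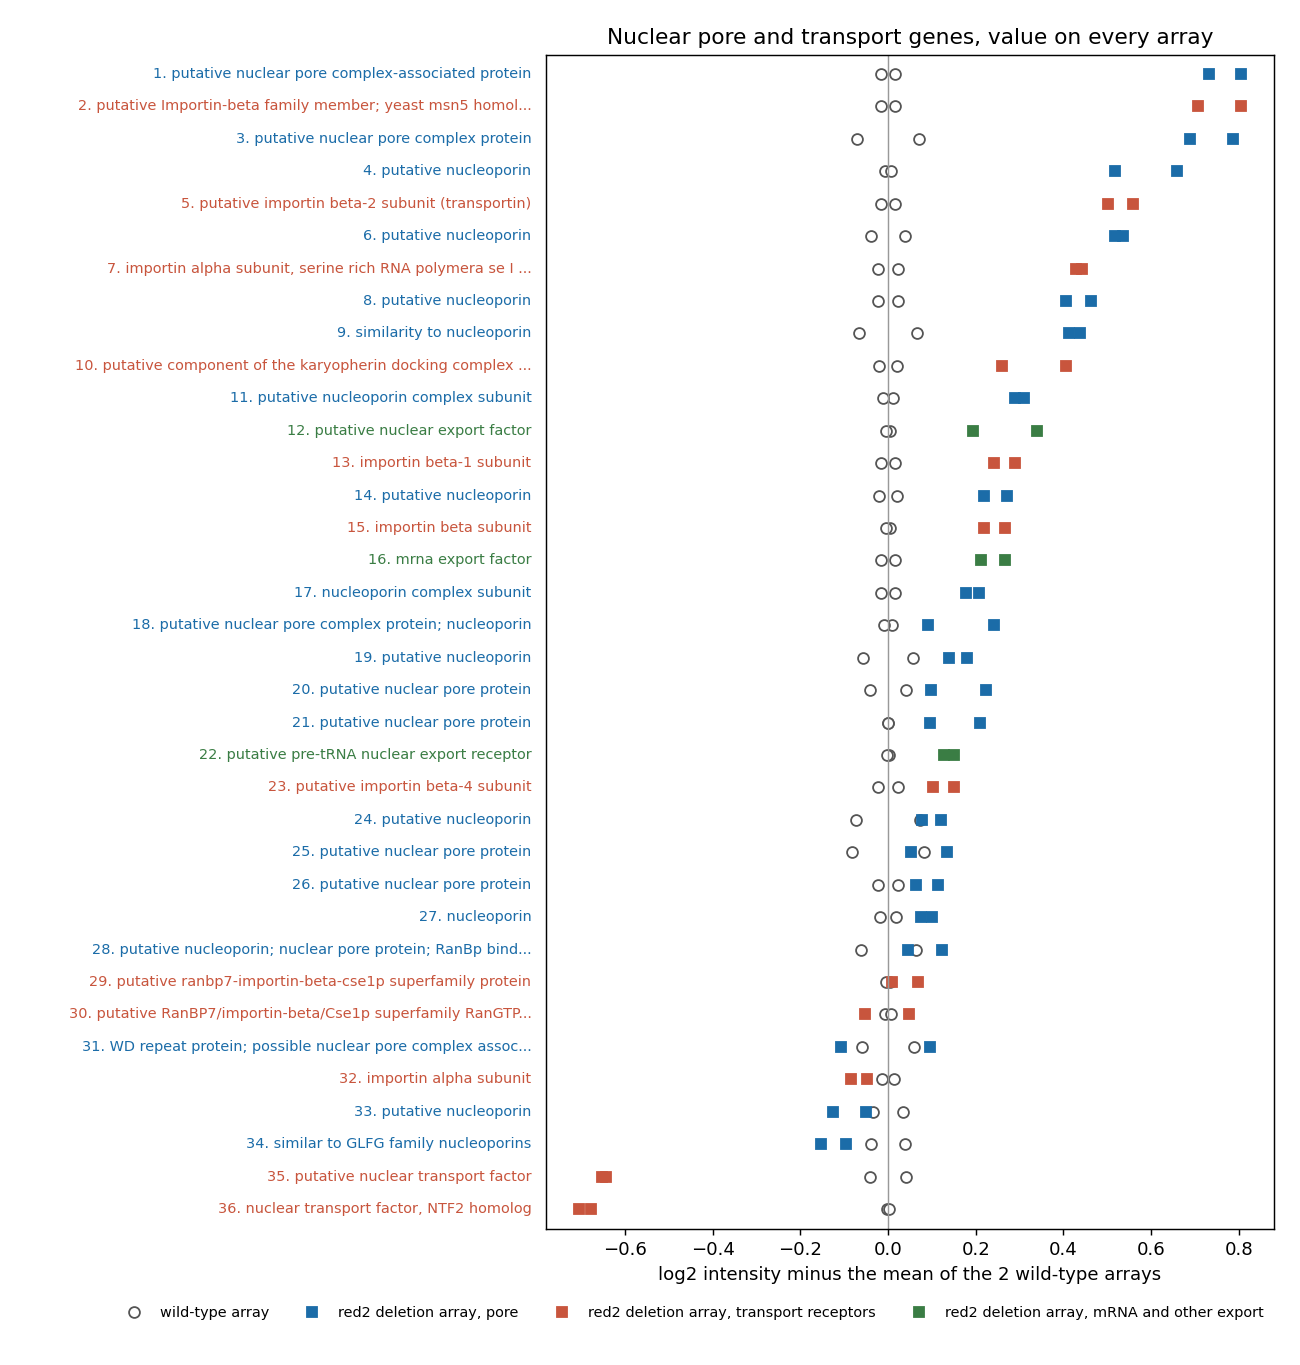
Each line is 1 of the 36 genes, ranked from the highest log2 fold change (1) to the lowest (36) and labelled by its deposited description. The x axis is log2 intensity minus the mean of the 2 wild-type arrays. Open circles are wild-type arrays and filled squares deletion arrays, coloured by class, and the 2 nuclear transport factor features stand far to the left while the 18 genes that passed as higher stand to the right.

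Of 21 pore genes, 9 rose, 0 fell and 12 missed the threshold, where 34.0% of all array genes were higher and 29.8% lower. Without adjustment (limma p under 0.05) 13 were higher and 0 were lower, where 35.9% of all array genes were higher and 31.5% lower. The median log2 fold change of the 21 pore genes was 0.16. The 9 that rose ran from 1.14-fold to 1.70-fold. With a trend in gene length removed, which is described further on, 6 of the 21 were higher and 5 lower. By that rule 28.6% of all array genes were higher and 35.2% lower.

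The largest increase belonged to a putative nuclear pore complex-associated protein (rank 1, chromosome III, 1569541 to 1575054), the longest of the 36 genes at 5514 bp. Its log2 intensities were 13.36 and 13.39 in wild type, against 14.18 and 14.11 in the deletion. Both deletion arrays lay well above both wild-type arrays. The level rose by 0.77 ± 0.052 on the log2 scale (limma SE, 2 arrays per group; adjusted p = 0.000124).

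A putative nuclear pore complex protein (rank 3, chromosome I, 1122438 to 1125960) stood at 14.61 and 14.75 in wild type, against 15.47 and 15.37 in the deletion. The wild-type arrays differed more for this gene than for most of the others, yet the groups did not overlap. The increase was 0.74 ± 0.069 on the log2 scale (1.67-fold, limma adjusted p = 0.00033). A putative nucleoporin on the same chromosome (rank 4, 4307803 to 4311821) had log2 intensities of 14.36 and 14.37 in wild type, against 14.88 and 15.02 in the deletion. It rose by 0.59 ± 0.063 (limma adjusted p = 0.000508), with no overlap between groups.

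A pair of shorter putative nucleoporins of chromosome I rose as well. The one at 761897 to 763434 (rank 6) stood at 14.62 and 14.54 in wild type, against 15.10 and 15.12 in the deletion, an increase of 0.53 ± 0.052 on the log2 scale (limma adjusted p = 0.000394). The one at 3359828 to 3361690 (rank 8) stood at 15.41 and 15.37 against 15.85 and 15.80, an increase of 0.43 ± 0.051 (limma adjusted p = 0.000748). Its signal lies close to 16, the log2 value at the top of a 16-bit scale. The other pore genes that rose were a gene with similarity to nucleoporin (rank 9, log2 fold change 0.43 ± 0.061), both genes described as nucleoporin complex subunits (0.30 ± 0.048 for rank 11 and 0.19 ± 0.049 for rank 17) and a putative nucleoporin of chromosome II (rank 14, 0.24 ± 0.051). The last of these missed the threshold without wild_type replicate 1 (limma adjusted p = 0.0567) or with the first block alone (0.0897). The subunit at rank 17 did not pass without wild_type replicate 1 (0.128), without wild_type replicate 2 (0.0719) or with the second block alone (0.12).

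The lowest pore genes had log2 fold changes below 0, and none passed the test. A gene similar to the GLFG family of nucleoporins (rank 34, chromosome III, 2010635 to 2011642), named for a repeat that in budding yeast lines the channel, stood at 14.79 and 14.87 in wild type, against 14.67 and 14.73 in the deletion. The deletion arrays were below the wild-type arrays, with a log2 fold change of -0.12 and a 95% interval from -0.26 to 0.010 (limma adjusted p = 0.0921). It passed as lower with quantile normalization (limma adjusted p = 0.0197) and with arrays centred on their median (0.0279). A putative nucleoporin of 5423 bp (rank 33, chromosome I, 3189199 to 3194621) stood at 15.47 and 15.54 in wild type, against 15.38 and 15.46 in the deletion. Its log2 fold change was -0.088, with an interval from -0.22 to 0.049. A WD repeat protein described as possibly associated with the pore (rank 31, chromosome II, 2105334 to 2106776) stood at 15.59 and 15.71 against 15.54 and 15.74, so its groups overlapped, and its log2 fold change of -0.0068 had an interval from -0.21 to 0.20.

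The remaining 9 pore genes that did not pass had log2 fold changes between 0.084 and 0.17. For 4 of them (ranks 18 to 21) the adjusted p lay between 0.0539 and 0.07. These 4 passed as higher without the dimmest 25% of genes, by which 13 pore genes were higher. The share of all array genes in that fit is not given here. With the length trend removed all 4 stood below 0, and ranks 19 (-0.17, limma adjusted p = 0.0455) and 21 (-0.17, limma adjusted p = 0.0245) passed as lower. With 1 array left out at a time the log2 fold change ran from 0.091 to 0.24 for rank 18, from 0.10 to 0.22 for rank 19, from 0.098 to 0.22 for rank 20 and from 0.096 to 0.21 for rank 21. Rank 18 passed without red2_deletion replicate 1 (limma adjusted p = 0.00898), and ranks 20 (0.0193) and 21 (0.0137) passed without red2_deletion replicate 2. Over the 12 pore genes that did not pass, the 95% intervals ran from -0.26 to 0.33 on the log2 scale. That range holds differences as large as those of some genes that passed, so a missed threshold does not show that these genes were unaltered.

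Of 12 transport receptors, 6 rose, 2 fell and 4 missed the threshold, where 34.0% of all array genes were higher and 29.8% lower. Their median log2 fold change was 0.19. The 6 that rose ran from 1.18-fold to 1.69-fold. The 2 that fell are the overlapping features of nuclear transport factor, a single locus. Both span less than 1000 bp, and 51.9% of all array genes up to that span were lower. The class took its members by word, so it holds a putative component of the karyopherin docking complex, similar to Nup53, which in budding yeast is a nucleoporin and not a carrier. Counted with the pore, that gene makes 10 of 22 pore genes higher and 0 lower, and leaves 5 of 11 carriers higher and 2 lower. The pre-tRNA export receptor is not among these carriers, since its words class it with export.

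The highest carrier was a putative importin-beta family member described as the homologue of yeast Msn5 (rank 2, chromosome I, 3463942 to 3466978). Budding yeast Msn5 is an exportin for phosphorylated proteins. The gene stood at 13.75 and 13.72 in wild type, against 14.54 and 14.44 in the deletion, with no overlap. It rose by 0.76 ± 0.055 on the log2 scale (1.69-fold, limma adjusted p = 0.00015). An 849 bp feature, described as a hypothetical GTPase activating protein, overlaps it by 98 bp and had a log2 fold change of 0.40.

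The putative importin beta-2 subunit, or transportin (rank 5, chromosome I, 3917936 to 3920790), is a carrier that in human cells imports RNA-binding proteins. Its log2 intensities were 14.83 and 14.86 in wild type, against 15.41 and 15.35 in the deletion. The increase of 0.53 ± 0.051 was 1.44-fold (limma adjusted p = 0.00035), and the groups did not overlap.

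Importin alpha is the adaptor that recognises classical import signals and binds importin beta, and the array carries 2 genes described as its subunits. The one described as a serine-rich suppressor of RNA polymerase I (rank 7, chromosome III, 550473 to 552101) stood at 14.84 and 14.88 in wild type, against 15.29 and 15.30 in the deletion. It rose by 0.44 ± 0.049 on the log2 scale (1.35-fold, limma adjusted p = 0.000597). The other importin alpha gene (rank 32, chromosome II, 3875704 to 3877323) stood at 15.61 and 15.59 against 15.51 and 15.55. Its log2 fold change was -0.066 with an interval from -0.19 to 0.053, so its upper bound lay below the lower bound of 0.32 for the first gene. The difference between the 2 genes was not itself tested, and the second gene lies nearer the top of the scale.

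The importin beta-1 subunit, the partner of importin alpha (rank 13, chromosome I, 3533661 to 3536252), stood at 15.46 and 15.43 in wild type, against 15.69 and 15.74 in the deletion, an increase of 0.26 ± 0.050 (limma adjusted p = 0.00461). A gene described as importin beta subunit (rank 15, chromosome III, 2264185 to 2267472) rose by 0.24 ± 0.049, from 15.34 on both wild-type arrays to 15.56 and 15.61. The docking complex component (rank 10, chromosome I, 1344519 to 1345821) stood at 14.34 and 14.38 against 14.63 and 14.77 and rose by 0.33 ± 0.064 (limma adjusted p = 0.0052). Groups did not overlap for any of these 3 genes.

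Other carriers of the importin beta family gave no call. The putative importin beta-4 subunit (rank 23) had a log2 fold change of 0.13 ± 0.051 (limma adjusted p = 0.0705). It passed as higher with quantile normalization (limma adjusted p = 0.0362), with the second block alone (0.038) and with a trended and robust prior (0.0146). Of the 2 genes assigned to the RanBP7, importin beta and Cse1p superfamily, in which budding yeast Cse1 returns importin alpha to the cytoplasm, the gene on chromosome I (rank 29) stood at 0.039 with an interval from -0.084 to 0.16. The gene on chromosome III (rank 30, 1211562 to 1214988) had log2 intensities of 15.47 and 15.48 in wild type, against 15.42 and 15.52 in the deletion. Its deletion arrays lay on either side of the wild-type arrays, and its log2 fold change was -0.0019.

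Nuclear transport factor was the 1 locus of the 35 that fell. The feature described as the NTF2 homolog (rank 36, chromosome I, 2393130 to 2393742) had log2 intensities of 14.17 on both wild-type arrays and 13.46 and 13.49 in the deletion. Both deletion arrays were lower than both wild-type arrays. The level fell by 0.69 ± 0.047 on the log2 scale (1.61-fold, limma adjusted p = 0.000127). A shorter feature, described as a putative nuclear transport factor (rank 35, 2393122 to 2393342), shares 213 bp with it and stood at 14.73 and 14.65 against 14.04 and 14.05. It fell by 0.65 ± 0.052 (1.57-fold, limma adjusted p = 0.00021). The pair is a single locus and is not counted as independent evidence. A putative nuclear pore gene ends 424 bp before the locus (rank 26, 2391583 to 2392697), and it stood at 14.68 and 14.73 in wild type, against 14.77 and 14.82 in the deletion. Its log2 fold change was 0.089, with an interval from -0.036 to 0.21. The array gene on the other side of the locus, described as a cAMP-dependent protein kinase, passed as higher, at 0.21 (limma adjusted p = 0.0452). Neither neighbour was lower.

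Each of the 3 export genes passed as higher, by small amounts, where 34.0% of all array genes were higher. The mRNA export factor (rank 16, chromosome II, 2367382 to 2369172) stood at 14.07 and 14.11 in wild type, against 14.36 and 14.30 in the deletion, an increase of 0.24 ± 0.050 on the log2 scale (1.18-fold, limma adjusted p = 0.00734). Without wild_type replicate 1 it missed the threshold (limma adjusted p = 0.0585). A putative nuclear export factor (rank 12, chromosome I, 1855525 to 1856550), whose cargo the description does not give, stood at 12.26 and 12.25 against 12.59 and 12.45 and rose by 0.27 ± 0.063 (1.20-fold, limma adjusted p = 0.0119). Its deletion arrays differed from each other by more than its wild-type arrays, and it did not pass with the first block alone (0.125).

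The putative pre-tRNA nuclear export receptor (rank 22, chromosome II, 3606223 to 3609159) is a receptor of the kind that takes transfer RNA out of the nucleus. Its description names a receptor, but its words class it with export and not with the transport receptors. The gene stood at 14.83 and 14.82 in wild type, against 14.98 and 14.95 in the deletion. The groups did not overlap, and the difference was 0.14 ± 0.047 (limma adjusted p = 0.0426). That call was the weakest of the 18 and ended with either block alone, with quantile normalization, with arrays centred on their median, with the replicate number as a block (limma adjusted p = 0.0757), without wild_type replicate 1 (0.222), without wild_type replicate 2 (0.226) and without red2_deletion replicate 1 (0.0741).

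Genes that work with the pore but were not taken by its terms were counted in 3 further lists. The Ran cycle, which gives transport its direction, had 5 genes, of which 1 was higher and 0 were lower (limma; without adjustment 2 were higher and 1 was lower at p under 0.05, against 35.9% and 31.5% of all array genes). The gene for spi1, the Ran GTPase of fission yeast, stood at 15.85 and 15.84 in wild type and at 15.83 on both deletion arrays. Its log2 fold change was -0.015, with an interval from -0.13 to 0.10. Its exchange factor pim1 stood at 0.13 ± 0.053 (limma adjusted p = 0.0732), the Ran/spi1 binding protein at -0.13 ± 0.053 (0.0711) and the Ran GTPase activating protein at -0.059 ± 0.052 (0.356). The Ran/spi1 binding protein passed as lower with arrays centred on their median (limma adjusted p = 0.0225) and without red2_deletion replicate 2 (0.0332). The gene that passed is similar to human RanBPM (0.17 ± 0.049, limma adjusted p = 0.0245), a subunit of a ubiquitin ligase complex in human cells and no part of the Ran cycle. It did not pass with arrays centred on their median (0.0854), with either block alone, without wild_type replicate 1 (0.1) or without wild_type replicate 2 (0.188). With the trend in gene length that is described further on removed, it stood at 0.0042 (limma adjusted p = 0.946), and 0 of the 5 Ran cycle genes passed. By that rule 28.6% of all array genes were higher and 35.2% lower.

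Of 5 genes of mRNA packaging and export outside the terms, 1 was higher and 2 were lower, by 1.17-fold at most. Over all array genes 34.0% were higher and 29.8% lower. The RNA-binding export adaptor mlo3 stood at 15.24 and 15.13 in wild type, against 15.45 and 15.38 in the deletion, with a log2 fold change of 0.23 ± 0.060 (limma adjusted p = 0.0165). A gene described as a poly(A)+ RNA export protein stood at 15.36 and 15.34 against 15.14 on both deletion arrays, a log2 fold change of -0.21 ± 0.047 (limma adjusted p = 0.0102). The 2 blocks differed for this gene, at -0.036 with the first block alone (limma adjusted p = 0.682) and -0.37 with the second. The helicase similar to yeast Dbp5, which in budding yeast releases export factors from mRNA at the pore, was at -0.15 ± 0.049 (limma adjusted p = 0.0334). Each of these 3 calls ended when a wild-type array was left out: mlo3 without wild_type replicate 2 (limma adjusted p = 0.128), the export protein without replicate 1 (0.0885) or replicate 2 (0.0657), and the helicase without replicate 1 (0.212) or replicate 2 (0.151). The polyadenylate-binding protein stood at -0.11 ± 0.050 and did not pass (limma adjusted p = 0.108). It passed as lower with arrays centred on their median (0.0306), with a trended and robust prior (0.0269) and with the length trend removed (-0.32, limma adjusted p = 0.002). Of the 5 genes, 1 was higher and 4 were lower with that trend removed, with a median log2 fold change of -0.29. Over all array genes 28.6% were higher and 35.2% lower by that rule, with a median of -0.039. With the first block alone 0 of the 5 passed, and the share of all array genes in that fit is not given here.

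The list of the nuclear envelope and the spindle pole had 11 array genes, of which 5 were higher and 3 lower. Over all array genes 34.0% were higher and 29.8% lower. Without wild_type replicate 1 or without wild_type replicate 2, 3 of them were higher. With the length trend removed the balance turned, to 3 higher and 5 lower, as it did over all array genes (28.6% higher and 35.2% lower). The genes whose descriptions name the envelope did not pass. Of these, cut11, a membrane protein of the envelope, stood at 0.034 ± 0.051. A putative pore membrane protein, whose wording the terms miss, stood at 0.028 ± 0.074. The gene sad1, described by the spindle pole body alone, passed as higher, at 0.18 ± 0.051 (limma adjusted p = 0.0219). It stayed above 0 once the trend was taken out, at 0.42. The 4 genes with the smallest p were the microtubule-associated dis1, which rose by 0.74 ± 0.047, a gene similar to budding yeast Spc24, which fell by 1.04 ± 0.066, a gene similar to yeast Nuf2, which fell by 0.70 ± 0.12, and the spindle pole component cut12, which fell by 0.58 ± 0.10 (limma adjusted p from 0.000104 to 0.00346). In budding yeast Spc24 and Nuf2 are kinetochore proteins. No array gene matched the terms for tRNA export or subunit export outside the 36.

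**Figure D2:**
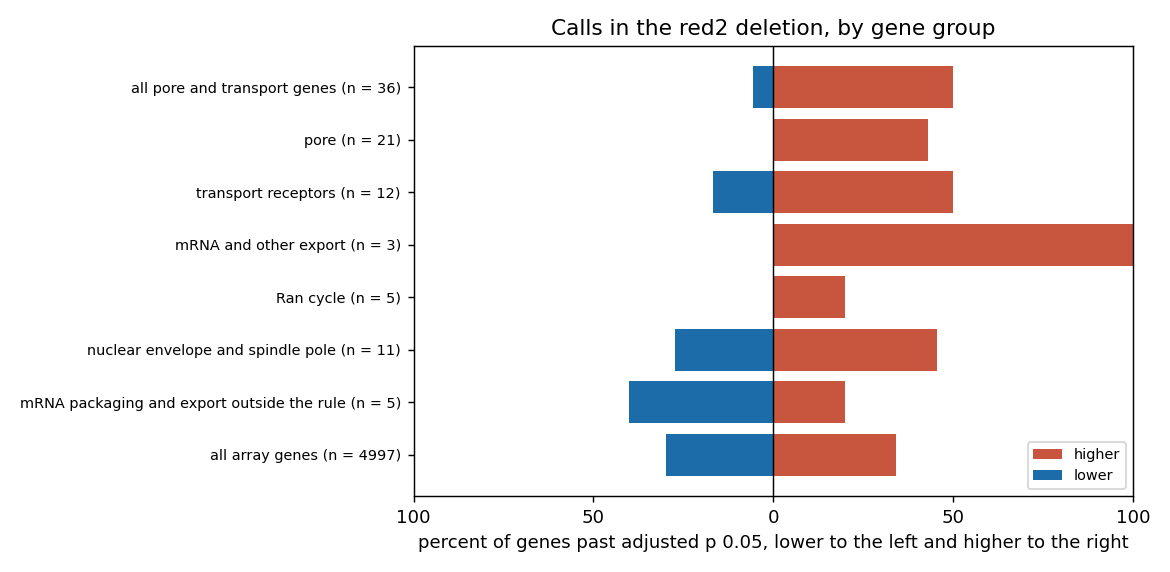
Bars give the percentage of each gene group that passed as higher (right) or lower (left) in the deletion, with the number of genes in brackets and all 4997 array genes in the bottom bar. The pore and export classes have no bar to the left, and 34.0% of all array genes are higher and 29.8% lower.

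Gene length moved with these results. The log2 fold change rose with the span of the array gene over all genes (Spearman rho = 0.445 across genes, which are not independent replicates and share the same 4 arrays), and the 36 genes are long, with a median span of 2636.5 bp against 1194 bp for all array genes. Among the 36 the same correlation was 0.25. Of the members over 1000 and up to 2000 bp, 6 of 13 were higher and 0 lower, where 36.3% of 2076 array genes were higher and 20.6% lower. Of those over 2000 and up to 3000 bp, 6 of 7 were higher and 0 lower, where 57.4% of 636 array genes were higher and 5.97% lower. Over 3000 and up to 4000 bp, 4 of 9 were higher and 0 lower, against 67.9% and 2.87% of 209 array genes. Above 4000 bp, 2 of 5 were higher and 0 lower, against 56.7% and 5.97% of 134. The share of higher genes was thus above the background over 1000 and up to 3000 bp and below it beyond, in bins of few genes. The 2 features of nuclear transport factor are the only members up to 1000 bp, a span at which 18.7% of all array genes were higher and 51.9% lower.

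**Figure D3:**
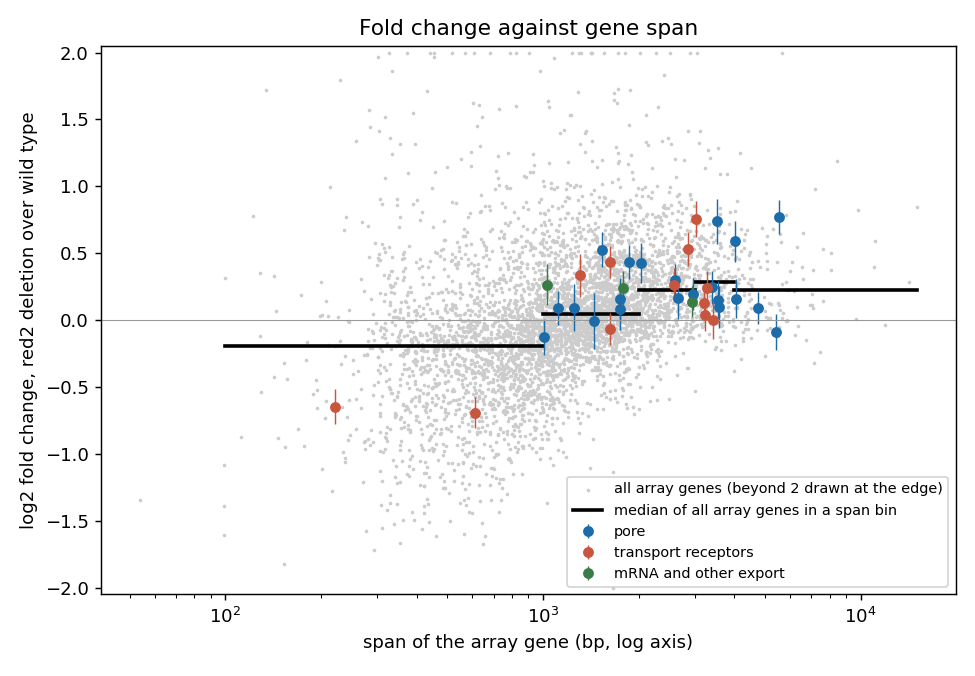
The x axis is the span of the array gene in bp on a log axis and the y axis the log2 fold change of deletion over wild type. Grey points are all 4997 array genes, with the 27 beyond 2 on the log2 scale drawn at the edge, black lines their medians in bins of span (0.28 over 3000 and up to 4000 bp), and coloured points the 36 genes with 95% intervals.

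With the length trend removed from each array, 11 of the 36 genes were higher, 12 were lower and 13 did not pass, and their median log2 fold change was -0.076 (28.6% of all array genes were higher and 35.2% lower by this rule). All 11 were among the 18 that were higher before, and both nuclear transport factor features stayed lower, at -0.47 and -0.35. Of the pore genes 6 were higher and 5 lower, and of the transport receptors 4 were higher and 6 lower. The genes that stayed higher were the pore genes of ranks 1, 3, 4, 6, 8 and 9, the Msn5 homologue (0.44), transportin (0.22), the serine-rich importin alpha (0.28), the docking complex component (0.24) and the putative nuclear export factor (0.31). The 6 others that had been higher and no longer passed were importin beta-1 (-0.031), the importin beta subunit (-0.079), the mRNA export factor (0.060) and the pore genes of ranks 11, 14 and 17. The pre-tRNA export receptor turned to lower, at -0.18 (limma adjusted p = 0.0176).

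A further 9 genes that had not passed were lower once the trend was removed. They included the long putative nucleoporin of rank 33 (-0.42, limma adjusted p = 0.00114), both genes of the RanBP7 and Cse1p superfamily (-0.28 and -0.33), the importin beta-4 gene (-0.19) and the second importin alpha gene (-0.22). The 2 importin alpha genes have spans of 1629 and 1620 bp, so that removing a trend in length shifts both alike and says nothing of the difference between them.

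**Figure D4:**
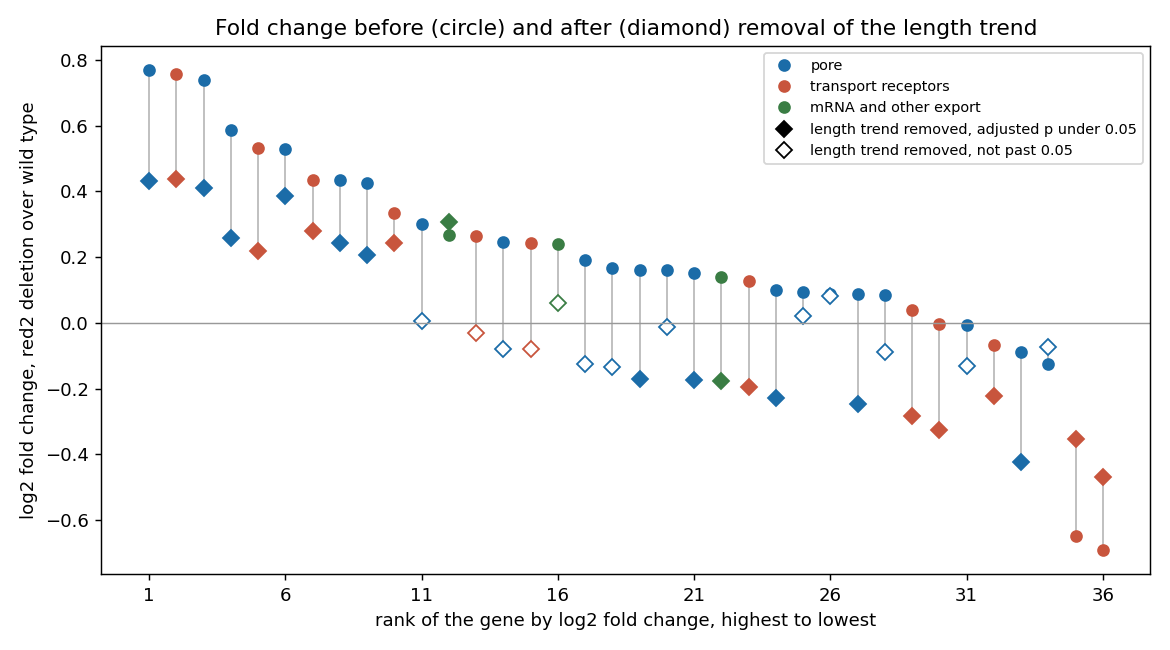
The x axis ranks the 36 genes by log2 fold change and the y axis is the log2 fold change of deletion over wild type, as measured (circles) and with the length trend removed (diamonds, filled where limma adjusted p is under 0.05). The 10 genes at the left keep values above 0.2, most of the middle drops to or below 0, and the 2 nuclear transport factor features at the right stay below -0.3.

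Signal strength also differed between the genes. The wild-type mean was at least 14 on the log2 scale for 31 of the 36 genes, against 62.5% of all array genes, and the highest single value was 15.88. Of the 5 genes with a wild-type mean below 14, 3 were higher and 0 lower, where 44.4% of all array genes at that level were higher and 29.7% lower. Of the 18 from 14 to 15, 11 were higher and 2 lower, against 39.3% and 33.2%, and their median log2 fold change was 0.24. Of the 13 from 15 to 16, 4 were higher and 0 lower, against 14.7% and 25.9%, with a median of 0.093. The part of compression near the top of the scale in these differences was not tested. By chromosome, 9 of 17 genes on I, 4 of 11 on II and 5 of 8 on III were higher, against 33.0%, 31.7% and 41.1% of all array genes.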

How the data were processed

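The authors deposited intensity values on a linear scale. RMA is named in the submitters' processing notes, without a version. The sources used here give neither the background correction nor calls of signal over background. The table of all 4 arrays and the tables of 1 wild-type and 1 deletion array each held equal values on all 9994 lines. Columns were tied to samples by strain number, replicate number and title.

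Intensities were taken to log2 and the 2 blocks of a gene averaged, with no filter or pseudocount. A linear model of genotype alone was fitted to 4 arrays and 4997 genes by lmFit and eBayes of limma 3.58.1 in R 4.3.3. Tests were two-sided, p-values were adjusted by Benjamini-Hochberg across the 4997 genes, and the threshold was 0.05. Errors after ± are limma's standard errors, and intervals are limma's 95% intervals. The fits were tested on simulated data. Python 3.11.15 and matplotlib 3.10.9 were used for summaries and figures. The number of arrays limits the precision.

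Classes follow the words of the descriptions. Values on every array are given for classes of up to 8 genes and for the 5 highest and up to 5 lowest of larger ones, and for other lists the 4 genes with the smallest p are named; spi1, cut11, the pore membrane protein and the remaining genes given with values were chosen after their values were seen. The word lamin was matched as a word start, since it also occurs inside the names of amines. The members and lists were chosen with earlier results of these data known. The length trend was a loess curve (span 0.5) of the deviations from each gene's mean on log2 span, fitted per array. Other alternatives were quantile normalization, centring, leaving out the dimmest 25% of genes, adding 32, either block, the replicate block, each array left out, a trended and robust prior, the value table of all arrays, thresholds of 0.01 and 2-fold and, chosen after seeing the data, the longest of overlapping array genes, which leaves out 88.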

Additional observations from a re-analysis of the deposited data

How the results depend on the processing

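The counts of 18 higher and 2 lower stayed within 1.5 times under most alternatives, though not always with the same genes. Removing the length trend gave 11 higher and 12 lower (pore 6 and 5, receptors 4 and 6, export 1 and 1) and a median of -0.076, and centring arrays gave a median of 0.11. The 2-fold rule left 0 higher and 0 lower in every class. Keeping the longest of overlapping array genes, chosen after seeing the data, left 1 lower, by construction. Pore genes lower went to 1 with quantile normalization and with arrays centred. Export genes higher went to 1 with the first block alone and at a threshold of 0.01. Leaving out 1 array at a time, the genes higher ran from 14 to 20 and lower stayed at 2, pore higher from 7 to 11, receptors higher at 6, export higher from 1 to 3 (1 without wild_type replicate 1), and the median from 0.18 to 0.21. In 15 alternatives at the 0.05 threshold, 14 of the 36 genes kept their call in each that measured them, among them 10 higher and 2 lower, of which the shorter nuclear transport factor feature was left out of 1. Over all genes, centring turned the balance to 1478 higher and 1788 lower.

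The genes that changed sign with the length trend removed were the pre-tRNA export receptor (-0.18), importin beta-1 (-0.031), the importin beta subunit (-0.079), importin beta-4 (-0.19), the RanBP7 superfamily gene of chromosome I (-0.28), and the pore genes of ranks 14 (-0.080), 17 (-0.12), 18 (-0.13), 19 (-0.17), 20 (-0.012), 21 (-0.17), 24 (-0.23), 27 (-0.25) and 28 (-0.089), with pim1 (-0.050), spi1 (0.057) and the pore membrane protein (-0.30). The RanBP7 gene of chromosome I also stood at -0.016 with quantile normalization, -0.017 with centring and -0.076 with the second block, and that of chromosome III at 0.14 with the first block and from -0.052 to 0.048 with arrays left out. The WD repeat gene stood at 0.015 with quantile normalization, 0.11 with the second block and from -0.11 to 0.095 with arrays left out. Other genes near 0 turned too: pim1 to -0.0066 and spi1 to 0.012 with the second block, spi1 to 0.028 with quantile normalization, the pore membrane protein to -0.028 and cut11 to -0.022 with centring, and with arrays left out they ran from -0.069 to 0.12 and from -0.00080 to 0.069. The cause was not tested.

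The fit with a replicate block called 18 of the 36 higher and 2 lower; the pre-tRNA export receptor did not pass, a putative nuclear pore gene (rank 20) passed (limma adjusted p = 0.049) and the Dbp5-like helicase did not (0.0543). Same-numbered arrays deviated with a correlation of -0.041, and the labels do not say that the numbers pair arrays.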
